A study of Rattus norvegicus with 6 samples.

Results

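Mitochondrial DNA encodes a small set of core subunits of the respiratory chain, the machinery that passes electrons to oxygen and makes ATP. The data described here are the read counts of 10 of these mitochondrially encoded genes in rat back skin, out of 33692 features in each deposited count table. The rows were taken by their Ensembl identifiers, each with the name paired to it in the rule. Complex IV is represented by Co1 (ENSRNOG00000034234), Co2 (ENSRNOG00000030371) and Co3 (ENSRNOG00000030700), complex V by Atp6 (ENSRNOG00000031979) and complex III by Cytb (ENSRNOG00000031766). Complex I is represented by Nd1 (ENSRNOG00000030644), Nd2 (ENSRNOG00000031033), Nd3 (ENSRNOG00000033615), Nd4 (ENSRNOG00000029707) and Nd5 (ENSRNOG00000029971). In the reference table at hand (assembly GRCr8), 0 of 47357 rat genes carried an Ensembl identifier and 0 lay on a mitochondrial chromosome. The pairing of names with identifiers was therefore not checked, and no gene length, position or sequence is given.

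Back skin of rats given afatinib was compared with back skin of rats given vehicle, with 3 RNA sequencing libraries in each group. Afatinib binds irreversibly to receptor tyrosine kinases of the ErbB family, among them the EGF receptor, and drugs of this class often cause a skin rash. Beyond tissue and treatment the labels give nothing on the animals: the sources used here state no strain, sex, age, dose, route or length of treatment, and do not say what the vehicle was. They also do not say whether each library stands for its own animal. The p-values therefore refer to the spread among these 6 libraries, part of which may be technical.

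All 10 genes lie on 1 circular genome that is present in many copies per cell. Its strands are transcribed as long precursor RNAs spanning many genes, which are then cut into the single messenger RNAs, so that levels of the mature messengers also depend on how stable each one is. Skin holds cells with differing numbers of mitochondria, from keratinocytes, fibroblasts and fat cells to the muscle layer under the skin. In whole tissue, fewer mitochondria-rich cells and less mitochondrial RNA per cell cannot be told apart. The tables pair no identifier with a symbol, so markers of these cell types, and the nuclear genes of the respiratory chain, were not analysed here.

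Library totals ran from 15304166 to 18494281 counts. Among the members, counts per library ran from 3318 (Nd4, afatinib replicate 1) to 369410 (Co1, afatinib replicate 3). The exact Poisson 95% interval was at most 3.42% wide on either side for Nd4 and at most 0.404% for Co1, for counting error only, so that the differences between libraries given below for the shared level are far larger than counting error. The afatinib libraries differed from each other more than the vehicle libraries did, and afatinib replicate 3 stood apart from the other 2: its 10 most abundant features outside the 10 members held 18.5% of its counts, against 9.23% and 12.6% in afatinib replicates 1 and 2 and 14.5% to 17.6% in the vehicle libraries.

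Together the 10 genes held 5.17%, 4.41% and 5.81% of the counts in vehicle replicates 1, 2 and 3, and 4.57%, 4.22% and 6.65% in afatinib replicates 1, 2 and 3. The vehicle mean was 5.13% ± 0.697 and the afatinib mean 5.15% ± 1.31 (SD, n = 3 each; exact two-sided permutation test, p = 1). The difference of 0.0162 percentage points was thus far within the spread between libraries. The highest and the lowest share were both found in afatinib libraries. Without afatinib replicate 3 the afatinib mean lay 0.73 percentage points below the vehicle mean (exact permutation p = 0.3), and the difference changed sign. A share of the library moves with every other feature counted, so the single genes were also compared as CPM (counts scaled to a common library size) with TMM factors, which rest on the assumption that most features do not differ between libraries.

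Cytochrome c oxidase (complex IV) passes electrons to oxygen. Co1, its catalytic core subunit, had 18806, 17030.1 and 18493 CPM in vehicle replicates 1, 2 and 3 and 13966, 13068 and 23989 CPM in afatinib replicates 1, 2 and 3. The vehicle libraries lay close together, while afatinib replicates 1 and 2 lay below all of them and replicate 3 above. Co2, the subunit that receives electrons from cytochrome c, had 4696, 4435 and 5830.5 CPM in vehicle libraries and 4311, 3549 and 6896 CPM in afatinib libraries. Co3, the third large subunit, had 7632, 6796 and 8566 CPM in vehicle and 5519, 5229 and 9375 CPM in afatinib libraries. For each of the 3 genes the afatinib libraries lay on both sides of the vehicle range, so the groups overlapped. The log2 fold changes, afatinib against vehicle, were -0.09, -0.02 and -0.19 for Co1, Co2 and Co3 (edgeR quasi-likelihood test, Benjamini-Hochberg adjusted p = 0.893, 0.976 and 0.752).

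Atp6, the subunit of the proton channel of ATP synthase (complex V), had 6273, 5494 and 7199 CPM in vehicle replicates 1 to 3 and 4924, 4395 and 8559 CPM in afatinib replicates 1 to 3. Cytb, the mitochondrially encoded subunit of the cytochrome bc1 complex (complex III), had 6059, 5620.2 and 7292 CPM in vehicle and 4684, 4190.0 and 8882 CPM in afatinib libraries. The same split appeared, with the first 2 afatinib libraries lowest and afatinib replicate 3 highest. The group means were 6322 ± 854 and 5959 ± 2267 CPM for Atp6 and 6324 ± 867 and 5919 ± 2578 CPM for Cytb (vehicle then afatinib, SD, n = 3). The log2 fold changes were -0.09 and -0.10 (edgeR adjusted p = 0.895 and 0.890).

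NADH dehydrogenase (complex I) takes electrons from NADH, and Nd1 to Nd5 are subunits of its membrane arm. Nd1 had 3588, 3373 and 3606 CPM in vehicle replicates 1 to 3 and 3086, 2828 and 5568 CPM in afatinib replicates 1 to 3. Its vehicle libraries were the closest together of the 10 genes (coefficient of variation 3.68%), and afatinib replicate 3 lay 1.54 times above the highest of them. Nd2 had 3015, 2831 and 3676 CPM in vehicle and 2354, 2176 and 4890 CPM in afatinib libraries. Nd3 had 782, 656 and 747 CPM in vehicle and 538, 501 and 877 CPM in afatinib libraries. Nd2 and Nd3 showed the same split of the afatinib libraries around the vehicle range. Nd5 had 2488, 2187 and 2348 CPM in vehicle and 1740 (replicate 1), 1798 (replicate 2) and 3242 CPM (replicate 3) in afatinib libraries, and here too replicate 3 alone lay above vehicle. The log2 fold changes of Nd1, Nd2, Nd3 and Nd5 were 0.12, -0.02, -0.19 and -0.05 (edgeR adjusted p = 0.845, 0.983, 0.694 and 0.932).

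Nd4 was the member that followed the others least. It had 319, 212 and 285 CPM in vehicle replicates 1 to 3 and 196, 241 and 442 CPM in afatinib replicates 1 to 3, and afatinib replicate 2 lay within the vehicle range. Its log2 fold change was 0.11 (edgeR adjusted p = 0.868). The row also held few reads: between 32.4% and 50.4% of the reads of Nd3 in the same library, and between 6.29% and 8.89% of those of Nd1. The reading frame of Nd4 is longer than those of Nd3 and Nd1, so these low counts are not in proportion to length, although a level per length was not computed. Copies of mitochondrial sequence also lie in nuclear genomes. The sources used here do not state how reads that map to several places were counted, and neither the identifier of this row nor the completeness of its counts could be checked.

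**Figure D1:**
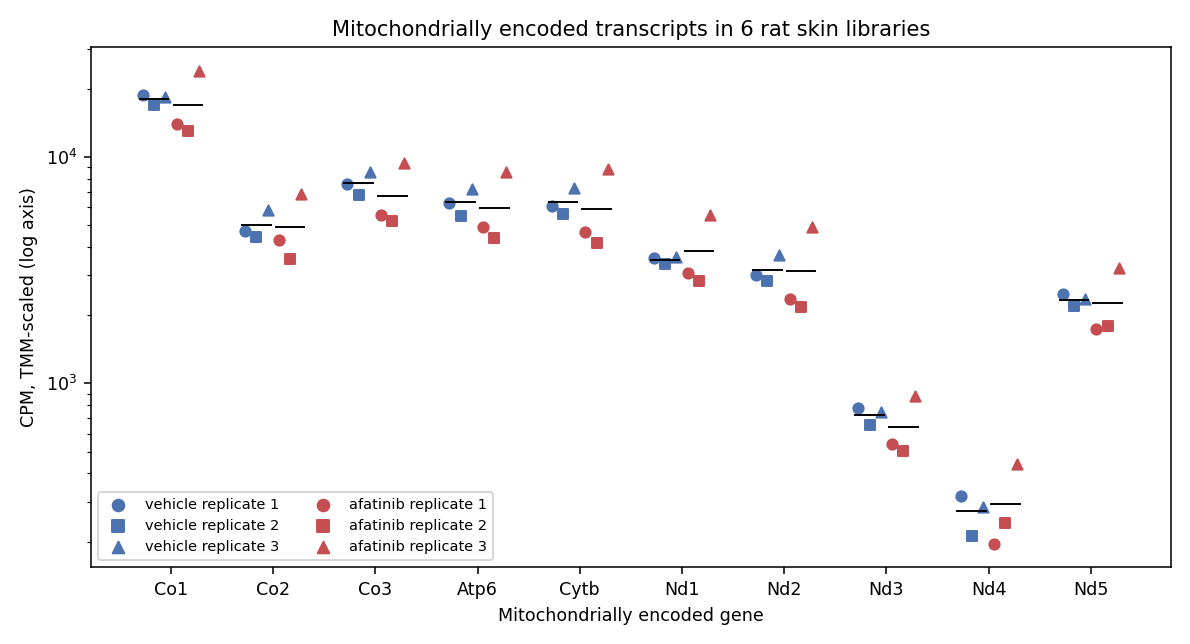
CPM (TMM-scaled, log axis) of each of the 10 mitochondrially encoded genes in the 3 vehicle libraries (blue) and the 3 afatinib libraries (red), with marker shapes for replicates 1, 2 and 3 and a black line at each group mean. Afatinib replicate 3 is the highest of the 6 libraries for all 10 genes, and afatinib replicates 1 and 2 lie at or near the bottom, so the 2 groups overlap for each gene.

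Between the groups as a whole, edgeR's quasi-likelihood test called 0 of the 10 genes in either direction at an adjusted p under 0.05, against 0% of the 15497 features tested. At an unadjusted p under 0.05 there were 0 of the 10, against 19.5% of all features, and the unadjusted p-values of the members lay between 0.498 and 0.968. DESeq2 also called 0 of the 10, against 6.78% of the features to which it gave an adjusted p, and limma voom 0 of the 10, against 0%. The groups did not overlap for 0 of the 10 genes, against 26.2% of all features tested. The fitted change was below 0 in 8 members and above 0 in 2, Nd1 and Nd4. The median log2 fold change of the members was -0.07, against 0.00 over all features (-0.0031), and the median size was 0.09 against 0.32. These sizes describe group means only, since afatinib libraries on both sides of vehicle cancel in a mean.

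The precision of this comparison was low. In limma voom the standard errors of the 10 log2 fold changes ran from 0.26 (Nd3) to 0.36 (Nd2). For Co1 the log2 fold change was -0.14 with a 95% interval from -0.94 to 0.67, which covers 0.520-fold to 1.59-fold. For Cytb it was -0.16 (-1.01 to 0.69), and for Nd1 0.06 (-0.69 to 0.81). Nd3 had the narrowest interval, from -0.84 to 0.40. Over all 10 genes the intervals reached from 0.497-fold to 1.81-fold. On the low side each interval reached at least to 0.621-fold (Nd1). On the high side each reached at least to 1.44-fold (Co3) except that of Nd3, which ended at 1.32-fold. For each gene, changes of any size within its own interval are compatible with the 6 libraries.

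**Figure D2:**
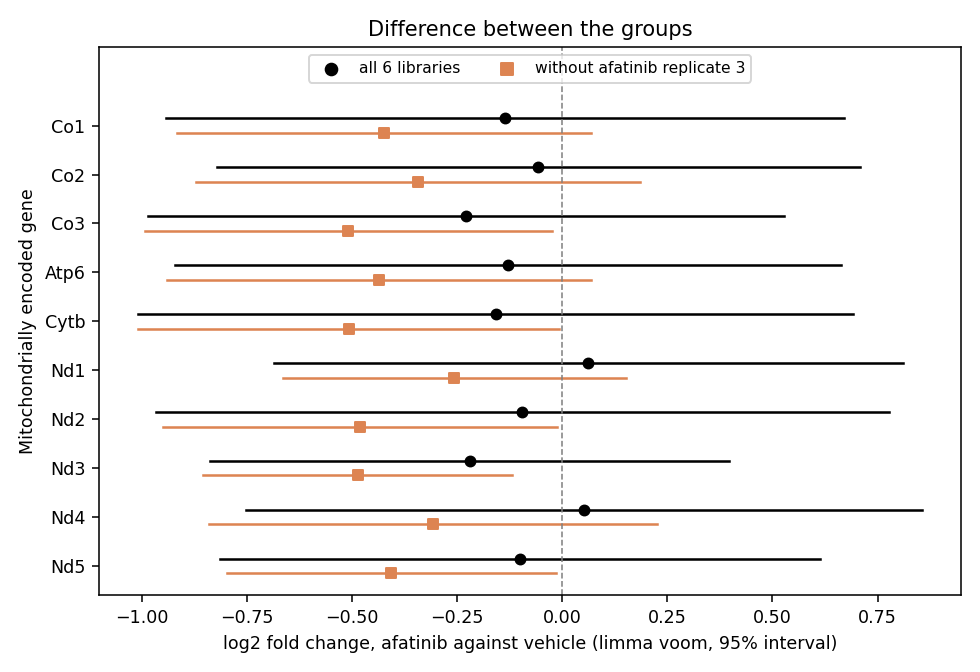
Log2 fold change of each gene, afatinib against vehicle, from limma voom with its 95% interval (not adjusted for the number of genes), with all 6 libraries (black circles) and without afatinib replicate 3 (orange squares). With all 6 libraries every interval covers 0; without that library all 10 estimates are below 0, from -0.51 to -0.26, and 5 intervals lie below 0, where 33.3% of all features have an interval on one side of 0.

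The 10 genes shared most of their variation between libraries. Afatinib replicate 3 was the highest of the 6 libraries for all 10 genes, at 1.20 to 1.62 times the vehicle mean. Afatinib replicate 2 was the lowest for 8 genes and afatinib replicate 1 for the other 2, Nd4 and Nd5. Afatinib replicate 1 had 0.720 to 0.876 times the vehicle mean and afatinib replicate 2 had 0.663 to 0.885 times. Within the vehicle group, replicate 2 was the lowest for all 10 genes, and 6 genes (Co2, Co3, Atp6, Cytb, Nd1 and Nd2) put all 6 libraries in the same order. From afatinib replicate 2 to afatinib replicate 3 the genes differed by 1.75-fold (Nd3) to 2.25-fold (Nd2), while the highest and lowest vehicle libraries differed by 1.07-fold (Nd1) to 1.502-fold (Nd4). The coefficient of variation ran from 3.68% to 20.0% over the vehicle libraries and from 32.4% to 48.3% over the afatinib libraries.

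On the log2 CPM scale the mean of the 10 genes had an SD of 0.35 over the 6 libraries. Once this shared level was taken away from each library, the SD of a single gene fell to between 0.05 (Atp6) and 0.20 (Nd4), with a median of 0.09. The shared level was 0.09, -0.10 and 0.18 in vehicle replicates 1, 2 and 3 and -0.32, -0.40 and 0.54 in afatinib replicates 1, 2 and 3, relative to its mean over all 6. The shared level therefore separated libraries within the afatinib group by more than it separated the groups. The median SD over all tested features was 0.34, close to that of the members (median 0.34). The tested features include many with far fewer counts than the members, and features of like abundance were not compared separately.

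The split of the afatinib libraries depended in part on the scaling. On the TMM scale afatinib replicate 1 lay below every vehicle library for 10 of 10 genes and afatinib replicate 2 for 9 of 10. As plain shares of the library, the counts were 2 of 10 (Co3 and Nd5) and 7 of 10 (all but Nd1, Nd4 and Nd5). Afatinib replicate 3 lay above every vehicle library for 10 of 10 genes on both scales. For Co3 as a plain share this was no more than a tie within counting error. It held 0.8572% of the counts in afatinib replicate 3 and 0.8570% in vehicle replicate 3. The TMM factors were 1.11 in both afatinib replicates 1 and 2, against 0.908 to 1.01 in the vehicle libraries and 0.915 in afatinib replicate 3. The 2 libraries with the highest factors were also those in which the 10 most abundant features outside the set held the lowest share of counts, as given above. The part of this share in the order of the libraries was not tested.

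Because afatinib replicate 3 stood apart, the comparison was also made without it. All 10 genes were then lower after afatinib, with log2 fold changes in edgeR from -0.52 (Co3) to -0.26 (Nd1) and a median of -0.44, against a median of -0.02 over all features. In edgeR 0 of 10 genes were called at an adjusted p under 0.05, against 10.2% of features, and the adjusted p-values of the members lay between 0.101 and 0.362. At an unadjusted p under 0.05 only Nd3 was lower in edgeR (log2 fold change -0.49, adjusted p = 0.101), against 16.4% of features lower and 33.2% in either direction. Limma voom called 0 of 10, against 8.59% of features. At an unadjusted p under 0.05 it placed 5 of 10 (Co3, Cytb, Nd2, Nd3 and Nd5), all lower, against 33.3% of features in either direction. DESeq2 called 6 of 10 as lower, against 25% of its features in either direction: Co1, Co3, Cytb, Nd2, Nd3 and Nd5, with DESeq2 adjusted p-values from 0.00210 (Co1) to 0.0286 (Nd2). The other 4 were Co2, Atp6, Nd1 and Nd4, with DESeq2 adjusted p-values of 0.214, 0.0547, 0.0851 and 0.359. The share of all features that were lower was not counted separately for limma voom or DESeq2.

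This subset was formed after the values of that library were known, and leaving out the highest library of a group lowers the mean of that group whatever the treatment did. With library totals in place of TMM factors, and again without afatinib replicate 3, all 10 estimates were still below 0, but the median was -0.22 where that of all features was 0.19, and edgeR called 0 of 10, against 14.6% of features. Leaving out afatinib replicate 1 or 2 instead gave medians of 0.06 and 0.10 in edgeR, with 8 of 10 genes above 0 in each case, and leaving out vehicle replicate 3 gave 0.02. The direction of the group difference thus rested on which single library was absent.

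**Figure D3:**
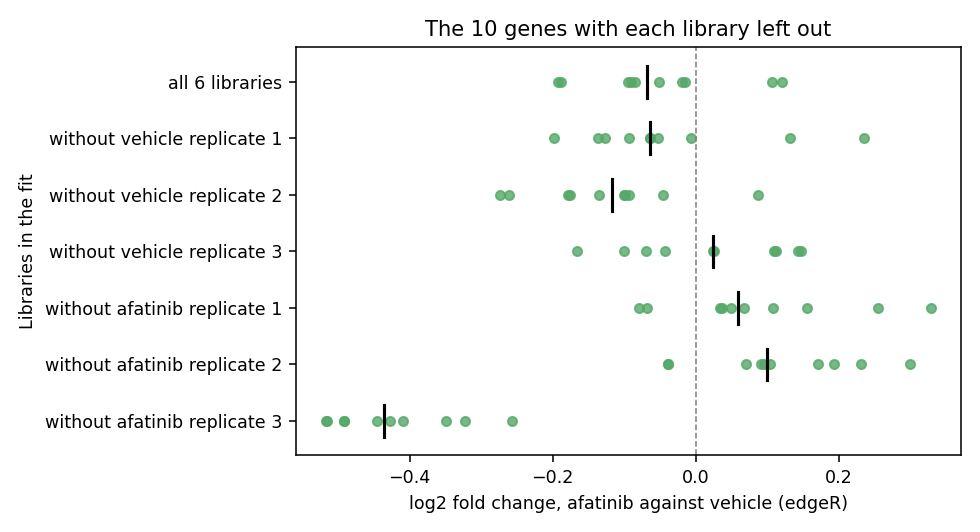
Log2 fold changes of the 10 genes in edgeR (green points, 1 per gene, with a black bar at their median) with all 6 libraries and with each library left out in turn. The median runs from 0.10 without afatinib replicate 2 to -0.44 without afatinib replicate 3, and edgeR called 0 of the 10 genes at an adjusted p under 0.05 in each of these fits.

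The makeup within the mitochondrial transcripts does not depend on the scaling of the libraries, and was compared as the percent of the summed counts of the 10 genes. It was similar in all 6 libraries. Complex IV genes held 58.0%, 58.1% and 56.7% of the sum in vehicle replicates 1 to 3 and 57.6%, 57.5% and 55.4% in afatinib replicates 1 to 3. Complex I genes held 19.0%, 19.04% and 18.4% in vehicle and 19.2%, 19.9% and 20.7% in afatinib libraries. For complex I each afatinib library lay above each vehicle library, by a mean of 1.09 percentage points (18.8% ± 0.374 and 19.9% ± 0.750, SD, n = 3; exact two-sided permutation p = 0.1, the lowest value open to 3 against 3 libraries, and 0.4 after Benjamini-Hochberg adjustment over 4 complexes). Complexes III and V overlapped, with differences of -0.28 and -0.04 percentage points (exact permutation p = 0.6 and 0.9), as did complex IV (-0.77, p = 0.5, exact permutation test), whose difference was -0.0381 without afatinib replicate 3.

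Among the single genes, the share of the member sum did not overlap between the groups for 2 of 10. For a single gene, exchange of the group labels alone gives such a lack of overlap with a probability of 0.1. The shares are parts of the same sum, so a higher share of any gene leaves less for the others. The 2 results are therefore not independent of each other. Nd1 held 6.69%, 6.94% and 6.21% in vehicle replicates 1 to 3 and 7.47%, 7.45% and 7.66% in afatinib replicates 1 to 3. Each afatinib library, afatinib replicate 3 among them, was above each vehicle library. The mean difference was 0.913 percentage points (two-sided exact permutation p = 0.1, Benjamini-Hochberg adjusted p = 0.5 over the 10 genes). It ran from 0.713 to 1.07 with any 1 library left out. Co3 held 14.2%, 13.97% and 14.8% in vehicle and 13.4%, 13.8% and 12.9% in afatinib libraries. Here each afatinib library was the lower, by a mean of 0.978 percentage points (exact permutation p = 0.1, adjusted p = 0.5), and by 0.754 to 1.19 with any 1 library left out. Because the groups did not overlap for either gene, leaving out 1 library could not turn the sign. The ranges therefore show only how the size moved. Neither difference passed the adjusted test, which this number of libraries cannot pass.

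As a log2 ratio to the geometric mean of the 10 genes, Nd1 differed by 0.16 and Co3 by -0.13, and both again showed no overlap. Of all 15497 features set against the same geometric mean, 2.5% lay higher and 6.98% lower in afatinib libraries without overlap. Dividing by this mean takes the shared level of the 10 genes out of a member but puts it into an outside feature. These shares are therefore not a like-for-like background for Nd1 and Co3. The shares of the other 8 genes overlapped, with exact permutation p from 0.3 (Nd3) to 0.9 (Atp6). Nd2 and Nd3, which belong to complex I with Nd1, differed by 0.127 and -0.088 percentage points (Nd2 by -0.210 without afatinib replicate 3; Nd3 by -0.0416 without vehicle replicate 1). The complex I difference was thus mostly that of Nd1.

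**Figure D4:**
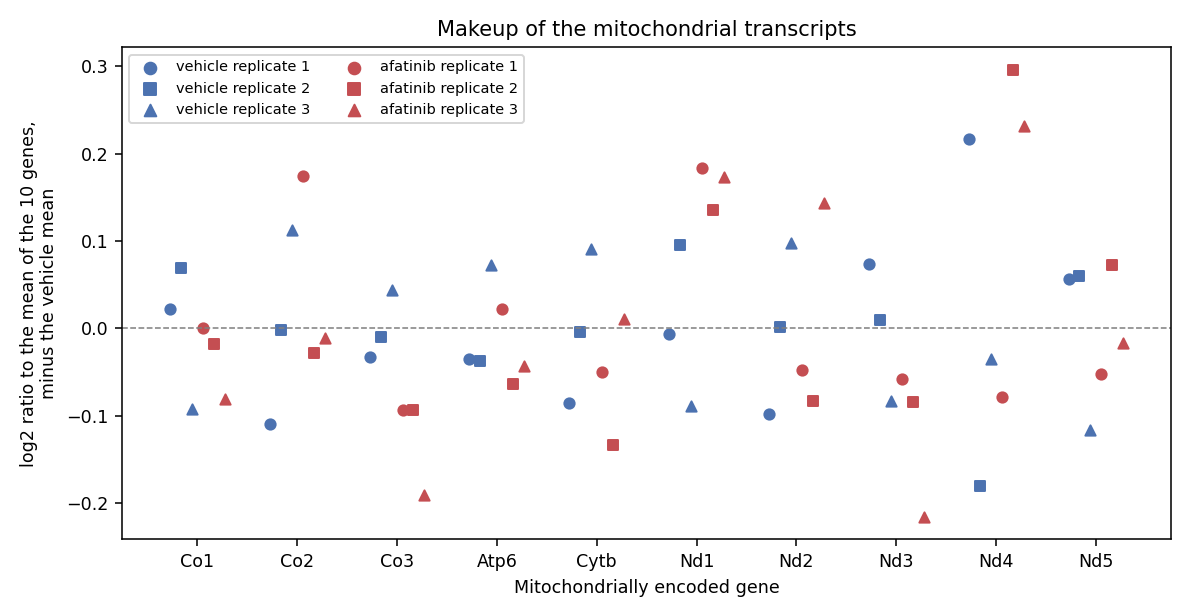
Log2 ratio of each gene to the geometric mean of the 10 genes in the same library, minus the vehicle mean of that gene, for vehicle (blue) and afatinib (red) libraries. The 3 afatinib points lie above all vehicle points for Nd1 and below all of them for Co3, while Nd4 shows the widest scatter, with an SD of 0.20 in each group.

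Features outside the set were ranked by how closely they followed the shared level of the 10 genes, as the root mean square difference of centred log2 CPM over the 6 libraries, among 3517 features with a mean of at least 50 CPM. The 4 closest were ENSRNOG00000029042 (0.03), ENSRNOG00000031053 (0.05), ENSRNOG00000036742 (0.10) and ENSRNOG00000013011 (0.11), against a median of 0.39 over these features. The files pair none of these identifiers with a gene name. The 10 members are not all the genes of the mitochondrial genome. Whether any of these outside features is a further mitochondrially encoded gene, or a nuclear gene, was therefore not checked. The closest, ENSRNOG00000029042, had 486, 427 and 514 CPM in vehicle replicates 1 to 3 and 357, 346 and 626 CPM in afatinib replicates 1 to 3. ENSRNOG00000031053 had 534, 479 and 624 CPM in vehicle and 400.0, 393 and 713 CPM in afatinib libraries. Both showed the split of the afatinib libraries seen in the 10 genes, as features chosen for closeness to the shared level must. Of the members, Nd4 lay farthest from the shared level (0.18, with 39 outside features closer), while for each of the other 9 at most 2 outside features were closer.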

How the data were processed

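The authors deposited raw read counts per gene, with a table for each library, per the file headers and the whole-number values. The submitters' processing notes name HISAT2 2.0.5, featureCounts 1.5.0-p3 and DESeq2 1.16.1. Genome build, annotation, strand setting and handling of multi-mapping reads: not given in the sources used here. Samples were grouped and numbered by their titles; afatinib replicates 1, 2 and 3 of the titles are headed 3, 4 and 5 in the deposited columns.

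From the deposited counts, 15497 of 33692 features passed filterByExpr in edgeR 4.0.16 (R 4.3.3). Libraries were scaled by TMM and tested by robust quasi-likelihood with group as the only term. Adjustment ran over all tested features, at 0.05. Intervals and standard errors are from limma 3.58.1 (voom), and DESeq2 1.42.0 was an alternative. Log2 CPM used a prior count of 2. Shares were compared by exact permutation. The edgeR procedure was tested on simulated data. The members and lists were chosen with earlier results of these data known. By the rule for named genes, all 10 members and the 4 closest other features are named. The lists of nuclear respiratory genes and cell type markers could not be matched to identifiers and were not used.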

Additional observations from a re-analysis of the deposited data

How the results depend on the processing

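RLE and upper quartile scaling, TMM without the members, no filter, a filter of 5 CPM in 3 libraries, DESeq2, limma voom and the replicate block kept the direction and the side of the threshold of all 10 log2 fold changes. These 8 alternatives called 0 members. The number of all features called was 0 with all 6 libraries in edgeR and 1032 in DESeq2, and ran from 0 to 1627 with 1 library left out, the upper end being without afatinib replicate 3, 51 without vehicle replicate 2 and 1 without vehicle replicate 1. With the replicate block edgeR called 0 features and the median of the members was -0.13. Deviations of libraries with the same number in their titles correlated by 0.20, -0.21 and -0.39, so the title numbers gave no sign of a pairing. In the column headings, vehicle replicate 3 and afatinib replicate 1 share a number, and these correlated by 0.32. The highest value of any pair was 0.43, for vehicle replicate 2 with afatinib replicate 3.

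Leaving out 1 library moved the log2 fold changes from -0.43 to 0.0696 (Co1), -0.35 to 0.17 (Co2), -0.52 to -0.04 (Co3), -0.45 to 0.0948 (Atp6), -0.52 to 0.10 (Cytb), -0.26 to 0.30 (Nd1), -0.49 to 0.19 (Nd2), -0.49 to -0.04 (Nd3), -0.32 to 0.33 (Nd4) and -0.41 to 0.11 (Nd5), the lower ends all without afatinib replicate 3. The summed share of the library differed by -0.73 to 0.48 percentage points, and by -0.0154 as a log2 ratio to the other counts, where the sign turned. Shares of the member sum moved from -1.30 to 0.30 (Co1), -0.29 to 0.26 (Atp6, complex V), -0.62 to 0.10 (Cytb, complex III), -0.21 to 0.33 (Nd2), -0.10 to 0.20 (Nd5), 0.109 to 0.819 (Co2), -0.127 to -0.0416 (Nd3) and 0.0293 to 0.114 (Nd4). That of complex I moved from 0.71 to 1.46 and that of complex IV from -1.24 to -0.0381.

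Added after seeing the data, library totals in place of TMM gave 0.0576 for Co2, 0.0481 for Nd2 and 0.0283 for Nd5, with the median of all features at 0.12. Without afatinib replicate 3, library totals gave 2345 features called, with Nd1 at -0.0420 and Nd4 at -0.112; limma voom called 1376, with Nd1 at -0.26 and Nd4 at -0.31; and DESeq2 called 4085 features and 6 members, with Nd1 at -0.25 and Nd4 at -0.31. The cause of these changes was not tested. The least counted member, Nd4, had at least 3318 counts in each library, so counting error was small beside the spread between libraries.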
